A study of Mus musculus with 6 samples.

Results

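Open chromatin was described at 9 integrin genes that smooth muscle cells can use, Itga1, Itga5, Itga7, Itga8, Itga9, Itgav, Itgb1, Itgb3 and Itgb5. The data are ATAC-seq peak lists, which mark DNA that the Tn5 transposase could cut, from 6 libraries of cultured mouse vascular smooth muscle cells. The genes were taken as a list and not by a cutoff on measured values. Earlier results of these data were known when this list and the other gene lists below were chosen. A gene's window was its body plus 20 kb on each side, and peaks of the 6 libraries that overlapped by at least 1 base were merged into regions. The 9 windows held 106 of the 85174 merged regions.

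The 3 control libraries came from cells given a negative control. The 3 Arid3a knockdown libraries came from cells given si-Arid3a#1, si-Arid3a#2 and si-Arid3a#3, in the order of their replicate numbers, so each siRNA is represented by 1 library and the spread within that group holds siRNA differences. The cells were primary cultures from a supplier. Per the labels, each assay used 50000 cells, and the time given after transfection was 24 h. The labels also mention angiotensin II but do not tie it to particular libraries, so no comparison rests on it. The labels do not say that libraries came from separate cultures, so the p-values below measure only the spread between these libraries, which may be technical. RNA interference acts on messenger RNA, so the peak lists do not show how far Arid3a fell.

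Integrins are receptors made of an alpha and a beta chain that join the extracellular matrix outside the cell to the actin cytoskeleton inside it. In the arterial wall they carry mechanical load and take part in the change of smooth muscle cells between contractile and migrating states. The alpha chain largely sets which matrix protein is bound, and the beta chain's tail binds adaptors such as talin and kindlin.

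The peak lists held 33248 to 52091 peaks. Depth estimated from them ran from 0.953 to 2.01 M tags (megatags, the reads or fragments that the peak caller counted), and control replicate 2 and knockdown replicate 3 were the shallowest. A gene was called open at a gene end where a peak lay within 1000 bases of an annotated end. Of 7 smooth muscle marker genes, 4 (Acta2, Tagln, Smtn and Lmod1) were so in every library, against 36.5% of all genes. Mylk had such a peak in 5 libraries, Cnn1 in 4 and Myh11 in 0. Of 5 endothelial and 3 epithelial markers, 0 were open at a gene end in every library. Of the leukocyte markers Cd68 was, Lyz2 had a gene-end peak in 3 libraries, and Ptprc, Adgre1 and Itgam in 0. By regions present in 6 of 6 libraries the order differed. Their share was 25% in the windows of smooth muscle, 14.3% of endothelial, 17.6% of leukocyte and 33.3% of epithelial markers, against 24.4% of all merged regions.

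The DNA just before the annotated start differed among the integrin genes in whether a peak lay over it. RefSeq promoter sequences (GRCm38.p6, the assembly of mm10) were matched for 7 of the 9 members. The 250 bases before the start are shown for 3 genes with a peak over the promoter (250 bases before to 50 after the start) in 6 of 6 libraries, Itga1 (chr13:115101965-115102214, minus strand), Itgav (chr2:83724147-83724396, plus strand) and Itgb1 (chr8:128685404-128685653, plus strand), for Itga8 with 5 of 6 (chr2:12301945-12302194, minus strand), and for Itga9 with 0 of 6 (chr9:118711442-118711691, plus strand). Each reads 5′ to 3′ toward the start, and capitals mark matches to the motifs searched.
Itga1: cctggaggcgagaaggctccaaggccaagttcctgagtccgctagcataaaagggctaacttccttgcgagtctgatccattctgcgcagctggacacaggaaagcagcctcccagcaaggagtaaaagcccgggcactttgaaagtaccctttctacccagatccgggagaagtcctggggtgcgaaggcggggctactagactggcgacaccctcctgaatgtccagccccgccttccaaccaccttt
Itgav: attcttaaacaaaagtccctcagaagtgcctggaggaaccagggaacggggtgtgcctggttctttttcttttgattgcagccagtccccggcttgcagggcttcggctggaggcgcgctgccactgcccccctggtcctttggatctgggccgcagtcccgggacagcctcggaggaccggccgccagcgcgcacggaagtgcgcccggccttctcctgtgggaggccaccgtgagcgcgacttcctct
Itgb1: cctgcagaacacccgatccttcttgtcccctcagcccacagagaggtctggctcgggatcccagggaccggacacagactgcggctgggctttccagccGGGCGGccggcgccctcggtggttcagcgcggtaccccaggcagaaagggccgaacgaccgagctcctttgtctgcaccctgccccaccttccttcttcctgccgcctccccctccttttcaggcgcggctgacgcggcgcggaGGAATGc
Itga8: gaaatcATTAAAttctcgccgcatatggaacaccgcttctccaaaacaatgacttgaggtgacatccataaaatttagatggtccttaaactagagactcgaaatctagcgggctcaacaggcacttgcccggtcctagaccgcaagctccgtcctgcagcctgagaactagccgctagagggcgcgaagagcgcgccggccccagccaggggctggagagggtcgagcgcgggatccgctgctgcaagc
Itga9: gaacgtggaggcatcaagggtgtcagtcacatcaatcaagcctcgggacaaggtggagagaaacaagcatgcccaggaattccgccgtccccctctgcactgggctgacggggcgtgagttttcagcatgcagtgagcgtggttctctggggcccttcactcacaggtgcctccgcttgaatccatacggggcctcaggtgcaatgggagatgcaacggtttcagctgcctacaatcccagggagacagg

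The motifs, searched on both strands, were the GC box GGGCGG, the CCAAT box CCAAT, the TATA box TATAAA, the AP-1 site TGANTCA, the TEAD site GGAATG, the short ARID3A motif ATTAAA and the CArG box, the site of serum response factor. A GC box lay in 3 of the 7 member promoters (Itga5, Itgb1 and Itgb5) and in 42.6% of 21263 promoters of protein-coding genes over the same 250 bases. ATTAAA lay only in the Itga8 promoter among the 7, 244 bases before the start, and in 11% of all promoters. GGAATG lay only in that of Itgb1, 7 bases before the start, and in 11.7% of all. The CCAAT box (35.4% of all promoters), the TATA box (11.6%), the AP-1 site (6.13%) and the CArG box (1.39%) matched in 0 of the 7. No matches overlapped each other, and a match describes letters and not a bound site.

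These promoters ranged from average to rich in G and C. The share of G and C over the 250 bases was 57.6% for Itga1, 55.6% for Itga5, 56.4% for Itga8 and 58.4% for Itga9, against a median of 55.6% over all promoters. It was 64.4% for Itgav, 65.2% for Itgb5 and 68% for Itgb1. The Itga9 promoter shown, with no peak over it, had a GC share between those of Itga1 and Itgav, which had one in every library. The annotated starts of Itga9 and Itgav used here lie inside the gene bounds, since the outermost transcript of each begins further out. For Itgav the start used was at 83724397 and the gene bound at 83722303. For Itga9 they were much further apart, at 118711692 and 118606709. At the outermost end of Itga9 a region was called in 3 libraries, and the sequence there was not examined.

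Integrin windows were open in both groups. Of the 106 regions, 31 (29.2%) were present in 6 of 6 libraries, against 24.4% of all merged regions and 26.1% of the 64892 regions in the windows of 21887 protein-coding genes. A further 10 were present in 5 libraries, and 27 (25.5%) were called in 1 library, against 33.5% of all regions. In the 4 deepest libraries alone, 46 of 103 regions (44.7%) were present in all 4, against 40.2% of all regions. Regions inside the gene bodies numbered 71, of which 20 were present in 6 of 6 libraries, and 35 lay in the flanks, of which 11 were. The gene table gives no exons, so whether a region inside a gene is exonic or intronic is not stated.

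The median region present in 6 of 6 libraries was 595 bases wide, and the median of those called in 1 library was 232. Peaks held a median of 15.5 tags at the summit in the former and 6 in the latter, within a range of 2 to 67 tags over all member peaks. Tags were recovered from the authors' fold enrichment and p-value of each peak. The absence of a call is not a measurement of closed chromatin at this depth. Of the 10 regions missing from a single library, 5 were missing from knockdown replicate 3, 4 from control replicate 2 and 1 from control replicate 3. The part of depth in these absences was not tested.

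The authors' fold enrichment at these 31 regions, which compares a summit with the local background of the same library, was moderate. Its median over libraries ran from 4.99 to 13.4 per region, with a midpoint of 7.14, against 8.65 for all regions present in 6 of 6 libraries. It exceeded 10 in 5 of the 31 regions (16.1%), against 31.5% of all such regions. Those 5 lay at Itga1 (2 regions), Itga5, Itgb1 and Itgb5. Summits of the 31 regions fell within a median range of 150 bases over the 6 libraries, against 139 bases for all such regions.

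**Figure D1:**
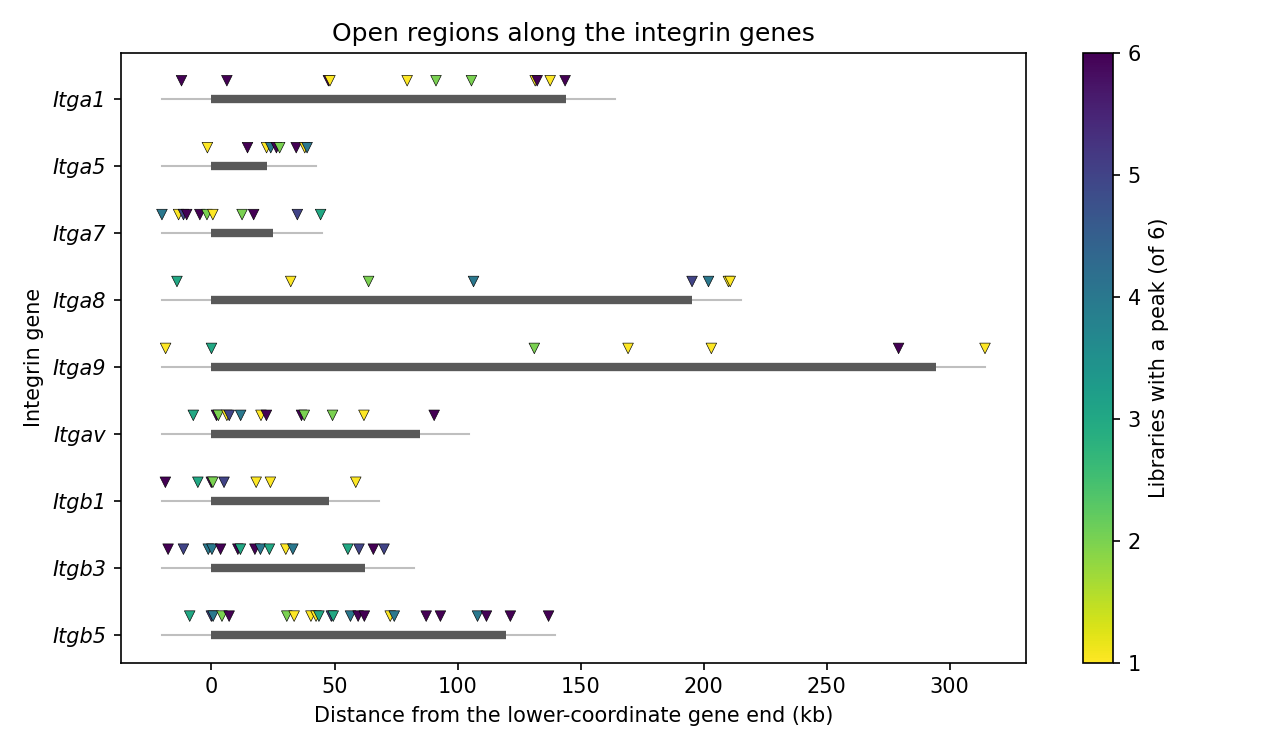
Each row is an integrin gene, with its body as a thick bar and its window as a thin line, against the distance in kb from its lower-coordinate end. Triangles are merged regions coloured by the number of libraries with a peak: Itgb5 and Itgb3 carry dense rows of regions, while the long Itga8 and Itga9 genes carry 8 and 7.

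Peak density differed among the genes. Per 100 kb of window, the mean number of peaks was 12.0 ± 2.52 for Itgb3, 10.0 ± 3.04 for Itga7, 9.50 ± 1.96 for Itgb5, 8.27 ± 2.35 for Itga5, 6.02 ± 1.50 for Itgav, 4.74 ± 1.33 for Itgb1, 3.44 ± 0.659 for Itga1, 1.49 ± 0.698 for Itga8 and 0.748 ± 0.412 for Itga9 (SD, n = 6 libraries). From Itgb3 to Itga1, each gene and the next in this order differed by less than the larger of their SDs. The steps from Itga1 to Itga8 and from Itga8 to Itga9 exceeded both SDs. All libraries contribute to every gene, so depth moves these numbers together.

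**Figure D2:**
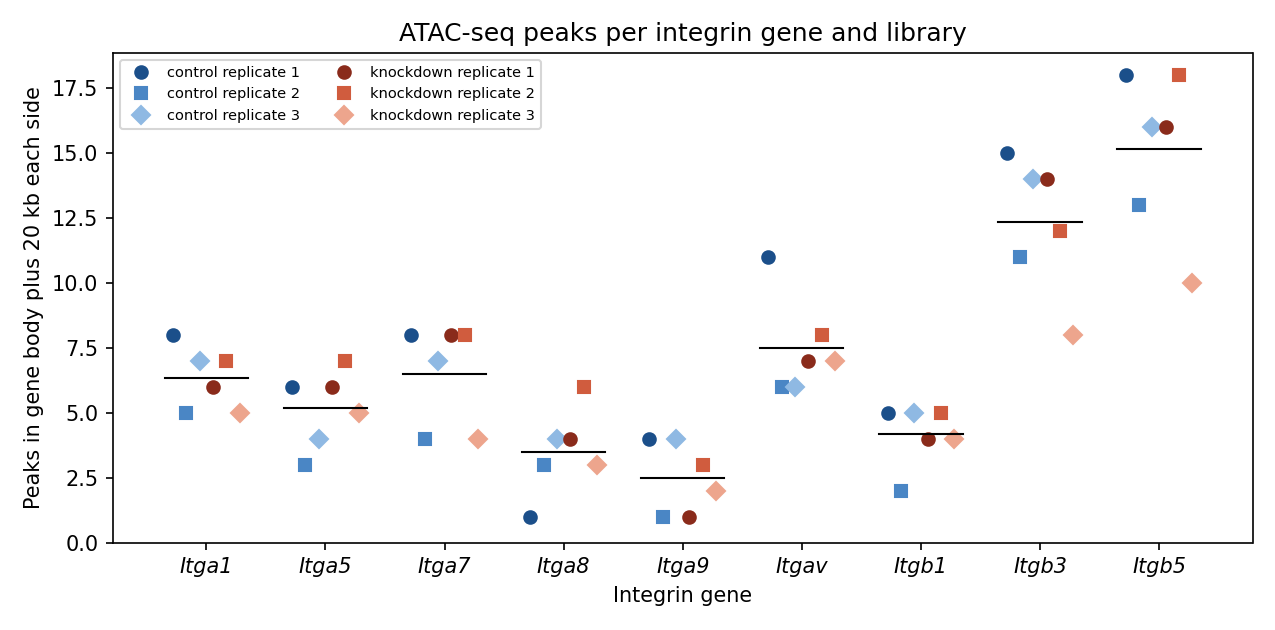
Number of peaks in the window of each integrin gene, 1 point per library, with the mean of the 6 libraries as a line. Itgb5 (10 to 18 peaks) and Itgb3 (8 to 15) are highest, and the points of both groups overlap for each gene.

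Among the alpha chains, Itga1 encodes the chain of a collagen and laminin receptor of smooth muscle. Its window held 11 regions, 5 of them present in 6 of 6 libraries. The region at its start (chromosome 13, 115101298 to 115102258) had a fold enrichment of 10.1, 6.11 and 11.1 in the controls and 9.15, 9.90 and 6.41 after knockdown, each in the order of replicates 1 to 3, as in all lists of 6 values below. The groups overlapped, and the lowest values were those of the shallowest libraries. Summits lay between 37 bases before and 301 bases after the start of the promoter shown above.

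The strongest region of Itga1 lay at the far end of the gene, 138 kb downstream of the start (114964125 to 114964547), with 11.7, 7.19 and 11.4 in the control and 15.0, 15.1 and 8.25 in the knockdown libraries. Knockdown replicates 1 and 2 were the highest, and knockdown replicate 3 lay within the control range. Another constitutive region lay 11.8 kb beyond that end of the gene (114945519 to 114946284; 10.7, 9.50, 11.5 and 12.0, 8.85, 8.21). The region at 115089967 to 115090870 lies at the end of Pelo, a gene that sits inside Itga1, and was not assigned to either gene.

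Itga5 encodes the alpha chain of the classical fibronectin receptor. At its annotated start a peak was called in knockdown replicate 1 alone, just inside the gene (chromosome 15, 103366544 to 103366790), at a fold enrichment of 3.62 and 16 tags, with its summit 182 bases after the start. The strongest region of all 9 windows by median lay inside the gene 7.86 kb downstream of the start (chromosome 15, 103358444 to 103359414). It had 15.3, 11.6 and 18.3 in the control and 12.6, 13.6 and 13.2 in the knockdown libraries, with 27 to 67 tags at the summit. The knockdown values lay within the control range, and summits of all 6 libraries fell within 39 bases. Regions 3.64 kb and 11.5 kb before the start were present in 6 of 6 libraries as well, at median fold enrichments of 6.91 and 8.39.

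Itga7 encodes the laminin-binding alpha chain of muscle. Its window held 11 regions and 3 present in 6 of 6 libraries, of which 1 lay inside the gene. That region (chromosome 10, 128950306 to 128950821) had 8.94, 7.70 and 6.06 in the control and 11.1, 4.14 and 6.93 in the knockdown libraries. Knockdown replicates 1 and 2 were its highest and lowest libraries. A second region, at 128922934 to 128923766, lay at an end of Bloc1s1, 9.66 kb below Itga7, with a median fold enrichment of 6.47. A gene-end peak of Itga7 itself was called only in knockdown replicate 2, at 5.08.

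Itga8 encodes the alpha chain that binds nephronectin and fibronectin and is typical of contractile smooth muscle. None of its 8 regions was present in 6 of 6 libraries. The region over its start (chromosome 2, 12301582 to 12302264) came closest. It was absent from control replicate 2, the shallowest library, and had 9.34 and 12.5 in control replicates 1 and 3 and 11.8, 11.1 and 4.58 in the knockdown libraries. Summits lay 35 to 114 bases before the start, within the promoter printed above. In the 4 deepest libraries this gene had 1 region present in all 4. The 5 libraries with a peak gave 9.85 ± 3.17 (SD, n = 5).

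A weaker region of Itga8, 88.8 kb downstream of the start (12212868 to 12213368), was present in 3 of 3 knockdown libraries and 1 control. Its fold enrichment was 5.08, 6.75 and 4.19 in the knockdown libraries and 2.71 in control replicate 2. It held 2 to 7 tags at the summit. Under a stricter −log10 q minimum of 5, it was present in 1 knockdown library more than in the controls.

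Itga9 encodes the alpha chain of a receptor for tenascin-C and osteopontin. It had the sparsest window, with 7 regions over 334 kb, and 4 of them were called in 1 library. The region present in 6 of 6 libraries lay inside the gene, 174 kb downstream of the promoter table's start (chromosome 9, 118885602 to 118886231). Its fold enrichment was 7.58, 7.48 and 10.1 in the control and 5.40, 6.40 and 5.15 in the knockdown libraries. All 3 knockdown values lay below all 3 control values, with 5 to 13 tags at the summit. A region at the outermost gene end (118606364 to 118607045) was called in control replicates 1 and 3 and knockdown replicate 2, at 5.43, 3.81 and 4.10.

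Itgav encodes the alpha chain that pairs with several beta chains, among them those of Itgb3 and Itgb5, in receptors for vitronectin and for latent TGF-beta. Its window held 13 regions, 4 of them in 6 of 6 libraries. The start region (chromosome 2, 83723970 to 83724693) had 7.00, 5.73 and 4.85 in the control and 9.56, 8.38 and 5.65 in the knockdown libraries. Knockdown replicates 1 and 2 were the highest, and knockdown replicate 3 lay within the control range. Summits lay from 135 bases before to 51 bases after the start. A second region within 1000 bases of the start (83724970 to 83725209) was called in control replicates 1 and 3 alone, at 3.39 and 3.97.

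The strongest constitutive region of Itgav lay 34.5 kb downstream (83758638 to 83759132), with 7.82, 6.11 and 9.35 in the control and 13.2, 8.66 and 9.19 in the knockdown libraries, again overlapping. A region 9.76 kb downstream (83733983 to 83734330) was present in 3 of 3 knockdown libraries, at 5.16, 5.30 and 4.57, and in control replicate 1, at 4.44. The constitutive region at 83812507 to 83813084 lies at an end of Fam171b.

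Among the beta chains, Itgb1 encodes the common partner of the Itga1, Itga5, Itga7, Itga8 and Itga9 products. Its strongest region lay 18.4 kb below the gene, upstream of the start (chromosome 8, 128666601 to 128667224). The fold enrichment there was 14.2, 13.6 and 15.8 in the control and 12.7, 11.9 and 11.0 in the knockdown libraries, or 14.5 ± 1.11 against 11.9 ± 0.868 (SD, n = 3). All 3 knockdown values lay below all 3 control values, with 19 to 44 tags at the summit.

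The start region of Itgb1 (128685153 to 128686016) was present in every library at 8.45, 7.72 and 5.59 in the control and 7.13, 7.51 and 5.70 in the knockdown libraries, and the groups overlapped. A second region within 1000 bases of the start (128686053 to 128686365) was called in knockdown replicates 2 and 3 alone, at 4.16 and 4.92. Summits of the first region lay 46 to 308 bases before the start. A region 5.10 kb downstream of it (128690560 to 128690947) was missing from control replicate 2 alone and had 9.72 and 8.47 in the other controls and 9.43, 8.08 and 7.01 in the knockdown libraries.

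Itgb3 encodes the beta chain of a vitronectin and osteopontin receptor that smooth muscle cells share with platelets and osteoclasts. Its window was the second richest, with 16 regions, 5 of them present in 6 of 6 libraries and 1 called in a single library. The strongest lay 17.3 kb below the gene (chromosome 11, 104590031 to 104590713), with 11.2, 6.53 and 7.91 in the control and 10.4, 9.56 and 10.6 in the knockdown libraries. Control replicate 1 was the highest library, and the other controls lay below the knockdown values. Inside the gene, the region at 104618571 to 104618868 had 6.03, 5.37 and 6.43 in the control and 7.31, 7.63 and 6.65 in the knockdown libraries, so all knockdown values lay above all control values.

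Both regions present in 3 controls and 1 knockdown library were at the lower-coordinate end of Itgb3. The region over that gene end (104607736 to 104608636) had 5.53, 4.59 and 4.37 in the controls and 5.80 in knockdown replicate 1. The region 1.04 kb below the gene (104606431 to 104606963) had 4.53, 3.92 and 4.01 in the controls and 5.31 in knockdown replicate 3. Knockdown replicate 2, one of the deeper libraries, had neither, and each of the other knockdown libraries had only 1 of them. With lists of equal length, the first was present in 1 control library more than knockdown libraries and the second in equal numbers.

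Itgb5 encodes the beta chain of another vitronectin receptor. It had the most regions, 23, of which 8 were present in 6 of 6 libraries, and its window also holds parts of Kalrn, Muc13 and Umps. The strongest region lay 87.3 kb downstream of the start inside the gene (chromosome 16, 33916510 to 33917321), with 10.9, 10.4 and 12.5 in the control and 12.4, 12.1 and 10.4 in the knockdown libraries. The groups overlapped. The start region (33829323 to 33829900) was weaker, at 5.92 and 4.94 in control replicates 1 and 2 and 4.87, 5.85 and 3.35 in the knockdown libraries, and it was not called in control replicate 3. A second region within 1000 bases of the start (33830058 to 33830577) was called in that library at 4.72 and 11 tags, and in control replicate 1 and knockdown replicates 1 and 2 at 7.53, 4.76 and 5.75. The highest-coordinate constitutive region, 33966167 to 33967118, lies at an end of Umps.

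Where members had a constitutive region at the annotated start, it was not their strongest. Of the 7 members with a promoter entry, 3 (Itga1, Itgav and Itgb1) had a start region in 6 of 6 libraries, and in 0 of these 3 did it have the highest median fold enrichment of the window. Over all genes with a promoter entry, 37.9% had such a start region. Where a gene had at least 1 further constitutive region, the start region was the highest in 39.0% of 4449 genes. With 3 members, that difference is a description.

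**Figure D3:**
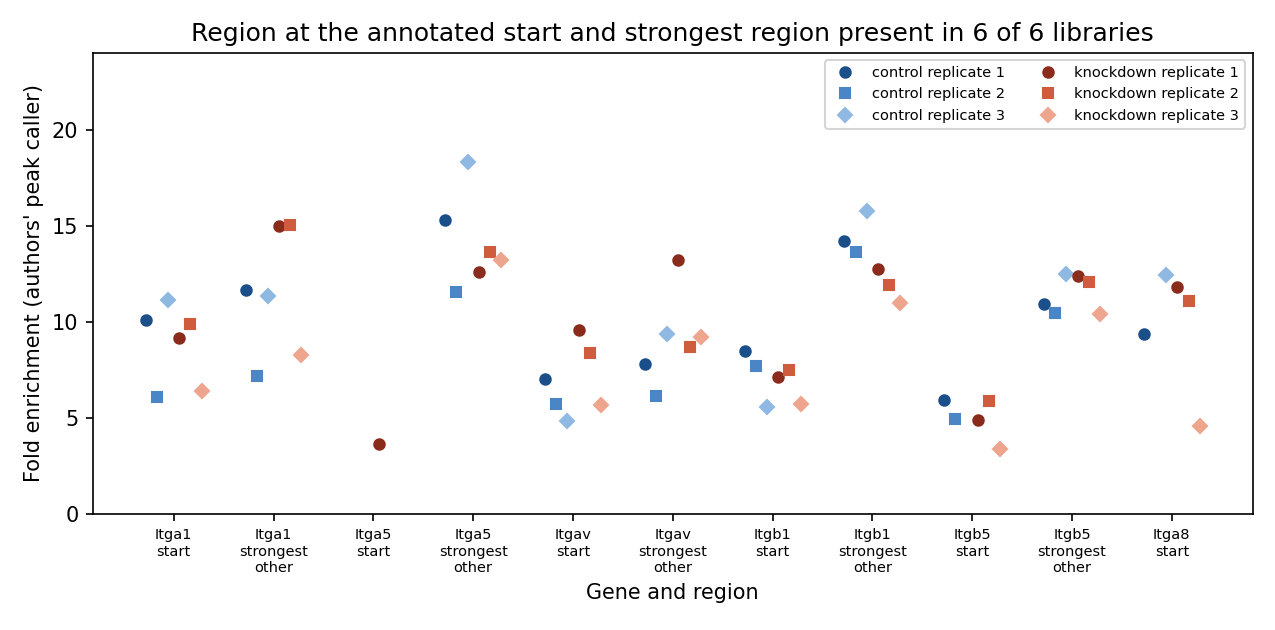
Fold enrichment by library at the region over the annotated start and at the strongest region present in 6 of 6 libraries of the same gene. For Itgb1 the start region spans 5.59 to 8.45 and the upstream region 11.0 to 15.8, while Itga8 has a start region in 5 libraries and no region in all 6.

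The question of the study was which open regions differ when Arid3a, a gene for a transcription factor that binds AT-rich DNA, is knocked down. At the integrin genes 1 region was control-only (a peak in all 3 controls and 0 of 3 knockdown libraries), against 0.277% of all merged regions. The opposite, knockdown-only pattern was found in 0 regions, against 0.432%. The exact p of 1 region cannot fall under 0.1 in this design, and these counts carry no test. The control-only region lay inside Itgb5, 49.5 kb downstream of the start (33878969 to 33879301). It had a fold enrichment of 5.63, 3.99 and 6.92 and 10, 5 and 14 tags in control replicates 1 to 3. It kept a peak in 2 controls and in 0 knockdown libraries at a −log10 q minimum of 5, and likewise with lists of equal length. The neighbouring Itgb5 region just below it (33878120 to 33878626) was open in both groups. That neighbour had 9.47, 5.00 and 10.8 in the controls and 9.61 and 10.8 in knockdown replicates 1 and 2, with no call in knockdown replicate 3.

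Regions present in 3 of 3 control and 1 knockdown library numbered 2 (1.89%), the Itgb3 regions above, against 1.09% of all merged regions. Those present in 3 of 3 knockdown and 1 control library numbered 3 (2.83%), against 1.72%, and lay at Itga8, Itgav and Itga5. The one of Itga5 lay 16.1 kb before its start (chromosome 15, 103382921 to 103383353), with 3.30, 4.13 and 4.14 in the knockdown libraries and 3.53 in control replicate 1. At a −log10 q minimum of 5, the Itga5, Itgav and both Itgb3 regions were present in equal numbers of control and knockdown libraries. With 50% of the region covered, those of Itga5 and Itga8 were so, while that of Itgav kept 2 more knockdown than control libraries. With counts this small, shares of a few percent rest on single regions.

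Of the 31 constitutive regions, 28 had overlapping fold enrichments between the groups. All knockdown values lay below all control values in 2 regions (6.45%), those of Itgb1 and Itga9 described above, against 1.71% of all 20742 regions present in 6 of 6 libraries. They lay above in 1 region, that of Itgb3, against 4% of all. The mean was higher in the knockdown libraries in 21 of the 31 regions (67.7%), against 61.2% of all 20742. Fold enrichment is scaled within each library. Its median over all constitutive regions was 6.89 in control replicate 2 and 7.62 in knockdown replicate 3, against 9.22 to 9.43 in the other libraries. These counts describe the order of the deposited values, unadjusted for such differences, and not an amount of change.

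**Figure D4:**
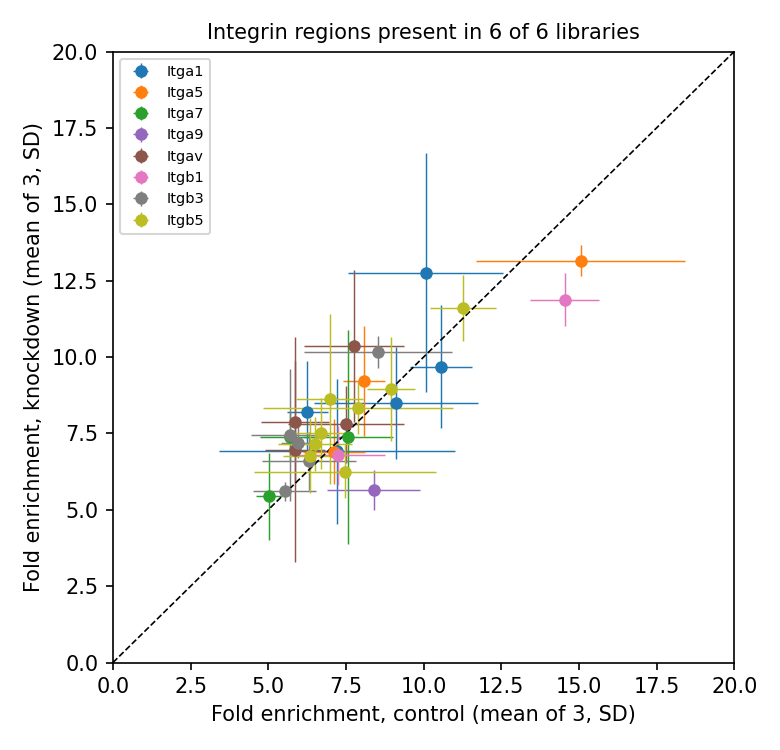
Mean fold enrichment of the 31 integrin regions present in 6 of 6 libraries, control against knockdown (points are means of 3 libraries, bars are SDs, the dashed line marks equal values). The Itgb1 upstream region, at 14.5 in control and 11.9 in knockdown, and the Itga9 region, at 8.40 and 5.65, lie below the line.

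Over the 9 windows, 4 numbers per library were compared, and in the lists as deposited each difference was smaller than the larger SD of the 2 groups. Integrin peaks numbered 76, 48 and 67 in the control libraries, against 66, 74 and 48 after knockdown. The means were 63.7 ± 14.3 and 62.7 ± 13.3 (SD, n = 3; exact two-sided permutation p = 0.8, adjusted p = 1). Peaks covered 23.6 ± 5.70 kb of the windows in control and 22.9 ± 4.63 kb after knockdown (SD, n = 3; exact two-sided permutation p = 1, adjusted p = 1). The low numbers of both groups were those of the shallowest libraries.

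As a share of the list, integrin peaks took 0.148%, 0.144% and 0.129% in the control and 0.131%, 0.144% and 0.115% in the knockdown libraries. The means were 0.140% ± 0.0103 and 0.130% ± 0.0145 (SD, n = 3; exact two-sided permutation p = 0.4, adjusted p = 0.8), and the groups overlapped. The median fold enrichment of the constitutive integrin regions, divided by that of all constitutive regions of the library, was 0.840 ± 0.0511 in control and 0.869 ± 0.00520 after knockdown (SD, n = 3; exact two-sided permutation p = 0.4, adjusted p = 0.8). The ratio was below 1 in 6 of 6 libraries. With lists of equal length its difference, knockdown minus control, was 0.0842 in place of 0.0296 (exact two-sided permutation p = 0.1), while that of the share was -0.00100 in place of -0.0103 percentage points (exact two-sided permutation p = 1). The smallest p that this design allows is 0.1, and p-values were adjusted over the 4 numbers.

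The windows of 17 further integrin genes held 124 regions, of which 38 (30.6%, against 24.4% of all) were present in 6 of 6 libraries, and 4 genes had none such, Itga4, Itgam, Itgax and Itgad, all of them leukocyte integrins. Their median was 1.38 constitutive regions per 100 kb, against 3.21 for the 9 members and 1.46 for all genes. Itgb2, the common beta chain of leukocytes, had 7 constitutive regions and was open at a gene end in every library, and the epithelial Itgb4 and Itgb6 had 6 constitutive regions each. Windows of 20 kb on each side can hold regions of neighbouring genes. Of the 124 regions, 1 was control-only, against 0.277% of all merged regions, and 0 were knockdown-only, against 0.432%. The control-only region lay at Itga2, a collagen receptor chain gene on the chromosome of Itga1 (chromosome 13, 114852495 to 114852956; 5.30 ± 1.08, SD, n = 3).

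Genes of the adhesion machinery on the inner side of the membrane were mostly open at a gene end. Of 16 adaptor genes, 11 were open at a gene end in every library, including Tln1, Vcl, Fermt2 and Ilk, which encode talin, vinculin, kindlin-2 and integrin-linked kinase, against 36.5% of all genes and 3 of the 9 members (Itga1, Itgb1 and Itgb5). Their windows held 259 regions, 85 of them (32.8%) constitutive, against 24.4% of all merged regions. There was 1 control-only region (0.386%, against 0.277% of all), at Lims1, and 1 knockdown-only region (0.386%, against 0.432%), at Pxn, which encodes paxillin. Tns3 and Tns1, tensin genes, had 12 and 11 constitutive regions.

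Of 16 ligand genes, 7, including Fn1, Tnc and Fbn1, were open at a gene end in every library, against 36.5% of all genes. Lama5 and Lamb1 had a gene-end peak in 0 libraries. The windows of the ligand genes held 43 constitutive regions among 175 (24.6%, against 24.4% of all). There were 4 knockdown-only regions (2.29%, against 0.432% of all) and 0 control-only regions (against 0.277%). The 4 lay at Npnt, Lama2, Lama4 and Lamc1, each in 3 of 3 knockdown libraries. Npnt encodes nephronectin, a ligand of the receptor that holds the Itga8 chain, and the other 3 encode laminin chains. Their smallest −log10 q ran from 1.31 for Lama2 to 3.42 for Lamc1.

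By the numbers of peaks per window over the 6 libraries, each scaled by the length of its list, the genes most like Itgb5 were Adamtsl3, Slc24a3 and Mecom, at Euclidean distances of 3.54, 3.59 and 3.59 peaks. Their windows spanned 319, 514 and 598 kb, against 160 kb for Itgb5, so the likeness is in number and not in density. They held 7, 3 and 4 constitutive regions, against 8 for Itgb5. Adamtsl3 had 18, 11 and 16 peaks in the control and 14, 18 and 11 in the knockdown libraries, and Itgb5 had 18, 13 and 16 and 16, 18 and 10. The 6 libraries differ in depth, which moves all genes together.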

How the data were processed

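ATAC-seq peak lists of 6 libraries were used, 1 list per library. Per the submitters' processing notes, Bowtie2, Picard and MACS2 were used on build mm10. Their parameters, the Tn5 shift and the handling of duplicates were not given in the sources used here. An unshifted alignment would displace summits by a few bases, and kept duplicates would add tags. For each peak the authors deposited a fold enrichment (a ratio over local background), the −log10 p and −log10 q, and a score that equals 10 times the −log10 q. Lists end just above a −log10 q of 1.30.

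Peaks were merged at 1 base of overlap. Positions count from 1. Whole tags were recovered from the fold and −log10 p, to within 0.001, for 99.996% of peaks or more in each library. Depth was estimated from the lowest common background, the default mouse genome size of MACS2 and the shortest peak of each library. That peak (164 to 210 bases) was taken as the fragment length. The genome size and fragment length are assumptions that serve to rank libraries. Numbers per library were compared by exact permutation over 20 relabellings in Python 3.11.15, checked on simulated data. Tags entered no test. The neural and Schwann marker list is not reported here.

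All 9 members were named. Named regions were those at the start, the strongest present in 6 of 6 libraries, all group-specific ones and those in 3 libraries of a group and 1 of the other; others were chosen after their values were seen. Members and lists were chosen with earlier results of these data known. Control and knockdown libraries share replicate numbers, but the labels do not say that a number marks a shared culture.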

Additional observations from a re-analysis of the deposited data

How the results depend on the processing

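The difference in integrin peaks (knockdown minus control, -1 as reported) was 1.33 at a −log10 q minimum of 5, 0 in gene bodies alone and 1.67 with 50 kb flanks, and ran from -8.83 to 6.33 when 1 library was left out. That in covered length (-0.684 kb) was 0.394, 0.228 and 0.248 kb under those settings and 0.445 kb with lists of equal length, and ran from -3.98 to 1.66 kb. Both were negative without control replicate 2, knockdown replicate 1 or knockdown replicate 2 and positive without knockdown replicate 3, control replicate 1 or control replicate 3; the cause was not tested. The share of peaks was lower, and the relative fold enrichment higher, in the knockdown libraries under each alternative run, but their size moved. The share differed by -0.0174 to -0.00291 percentage points with 1 library left out, by -0.00100 with lists of equal length and by -0.000896 in the 2 deepest libraries of each group. The relative fold differed by 0.00585 to 0.0599 with 1 library left out, lowest without control replicate 1 and highest without control replicate 2 (exact permutation p = 0.1), and by 0.0842 with lists of equal length (exact permutation p = 0.1). The value 0.1 is the smallest that either design allows. Constitutive regions numbered 19 at that minimum, 14 with 50% of the region covered in each library, 21 with lists of equal length and 20 in gene bodies, which construction lowers. They numbered 31 to 36 with 1 library left out. By gene, lists of equal length left Itgav 1 in place of 4 and Itga9 0 in place of 1, while Itgb3 kept 5. Control-only regions numbered 0 at that minimum and 1 to 3 with 1 library left out. In the 2 deepest libraries of each group they numbered 4 of 103, against 2.70% of all 77124 regions there. With lists of equal length the 1 control-only region was at Itgb3 and not at Itgb5. Knockdown-only regions numbered 1 at 50% cover, 2 of 103 in the deepest libraries (against 2.44% of all) and 0 to 2 with 1 left out. Leaving libraries out raises such counts by construction. With the 2 deepest libraries of each group, a check by gene that was chosen after seeing the data, Itgb3 had 10 constitutive regions in place of 5, Itga7 5 in place of 3 and Itga8 1 in place of 0. With the replicate number as a block (8 exchanges, smallest two-sided p 0.25), the differences stayed at -1 peak, -0.0103 percentage points, -0.684 kb and 0.0296, with exact permutation p of 1, 0.25, 1 and 0.5. Same-numbered libraries did not deviate together over 20742 regions (correlations of 0.0414, -0.0542 and -0.0522), so the block is not taken as a pairing. Depth was estimated and not given, and its part in missing calls was not tested.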
